A study of Mus musculus with 12 samples.

Results

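Neuritin, neuropilin 1 and 2 class 4 semaphorins were followed in mouse regulatory T cells (Treg), the CD4 T cells that carry the transcription factor Foxp3 and restrain immune responses. The genes are Nrn1, Nrp1, Sema4a and Sema4d, 4 of the 16232 genes in the in vivo table and of the 24421 in the in vitro table, and all 4 passed the filter on low values in both. They were picked by name from earlier results on these same libraries, among them the lower level of Nrn1 in knockout cells in vivo, which is therefore given here as a description with no test. Which of the other values counted in the choice is not recorded, so each adjusted p below states where a gene stood in the fit over all genes and is not independent evidence.

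The 12 libraries form 6 groups of 2, all of Treg from spleen and lymph nodes. Wild-type cells (WT) and cells with a conditional knockout of Kdm2b (cKO) were each sequenced in vivo and, in culture, with and without stimulation. Kdm2b encodes a histone demethylase that takes the Polycomb complex PRC1.1 to CpG-rich DNA. The Cre driver, the strain, the age of the mice, the stimulus and its duration are not given in the sources used here. No label says that replicates came from separate mice or cultures, so the spread between them may be technical.

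Neuritin is a small protein held on the cell surface by a lipid anchor, first known from neurons, and in T cells its gene marks Treg, follicular regulatory and anergic cells. Neuropilin 1 is a surface co-receptor for class 3 semaphorins and for vascular endothelial growth factor, and many Treg that arise in the thymus carry it. Semaphorin 4A is a transmembrane ligand that binds plexins and also neuropilin 1 on Treg, a contact described as sustaining their stability. Semaphorin 4D, or CD100, is a ligand abundant on T cells whose receptors include plexin B1 and, on B cells, CD72.

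Nrn1 (Entrez 68404) lies on chromosome 13, 36725622 to 36734477, in the RefSeq annotation of GRCm38.p6. Sema4d (Entrez 20354) is on the same chromosome at 51685529 to 51793678. Nrp1 (Entrez 18186) spans chromosome 8, 128358591 to 128505476, and Sema4a (Entrez 20351) chromosome 3, 88435959 to 88461182. These positions come from the annotation and not from the deposited tables.

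Because the protein knocked out here binds unmethylated CpG pairs, the letters CG were counted in the 250 bases before annotated start sites. RefSeq windows were at hand for 3 of the 4 genes, 8 windows in all, and none was matched for Nrn1. Nrp1 had 1 window with 11 pairs, and 35.6% of the 32851 windows of all genes hold at least as many. The 4 windows of Sema4a held 13, 6, 3 and 2, of which those with 13 and 3 overlap each other. Sema4d had 3 windows with 2, 2 and 1 pairs, against a median of 6 over all windows. All 3 lie inside the span of Sema4d given above. None was at hand at its 5′ end (chr13:51793678, minus strand), so the pairs at that start were not counted. The windows are on GRCm38.p6, and some start sites lie inside the span of a longer transcript of the same gene. The window of Nrp1 (chr8:128358823-128359072, plus strand) and that of the outermost start of Sema4a (chr3:88461183-88461432, minus strand, 81.2% of windows with at least its 2 pairs) are shown to let the densities be compared. Each runs 5′ to 3′ with every CG in capitals, and CG reads the same on both strands.
Nrp1: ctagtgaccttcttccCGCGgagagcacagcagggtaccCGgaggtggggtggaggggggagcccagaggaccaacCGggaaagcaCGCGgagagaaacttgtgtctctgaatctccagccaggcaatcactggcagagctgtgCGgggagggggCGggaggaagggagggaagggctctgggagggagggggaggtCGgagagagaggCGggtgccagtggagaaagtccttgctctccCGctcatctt
Sema4a: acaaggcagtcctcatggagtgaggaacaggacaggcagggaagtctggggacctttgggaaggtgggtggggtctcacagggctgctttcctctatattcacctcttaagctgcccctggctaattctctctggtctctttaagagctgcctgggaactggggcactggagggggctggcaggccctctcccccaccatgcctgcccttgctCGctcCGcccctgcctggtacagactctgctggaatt
The 2 windows differ in how many pairs they hold, and no library here measured binding or methylation at them.

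Levels are in FPKM, which divide a gene's fragments by its length and by the size of the library. All 7 Treg markers, Foxp3 and Il2ra among them, were at 1 FPKM or more in every library, as were the T cell genes Cd3d, Cd3e, Cd3g and Cd4. Transcripts that mark other cells were also present. In vitro the sum of 10 B cell markers was 35.5 to 52.6 FPKM in WT and 168 to 212 in cKO, with 0 to 2 of them at 0. In vivo it was 59.2 and 76.5 in WT against 19.4 and 28.9 in cKO. Erythroid markers summed to 11.2 to 1689 FPKM in WT and 5103 to 51165 in cKO in vitro and to at most 16.3 in vivo. The WT replicate 2 libraries in vitro listed 12379 (unstimulated) and 13273 (stimulated) genes at 0, where the other in vitro libraries had 9102 to 9857. Kdm2b was between 66.3 and 146.5 FPKM in the 12 libraries, a level over the whole gene that checks no label of a conditional allele. Its means in WT and cKO were 111.5 and 135.9 FPKM in vivo, 89.9 and 93.6 unstimulated and 73.1 and 68.4 stimulated. In such bulk libraries, fewer cells of a type and less RNA per cell cannot be told apart. The read depth is unknown, so no counting interval was computed.

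Nrn1 was the member whose genotypes lay farthest apart in log2 fold change in vivo, the value it was chosen on, and after stimulation. By the ratio of means Sema4a lay farther apart after stimulation, 5.05-fold higher in cKO, where Nrn1 was 3.59-fold lower. In vivo Nrn1 was at 17.1 and 15.0 FPKM in the WT libraries and at 4.76 and 3.82 FPKM in the cKO libraries. Both cKO libraries were therefore below both WT libraries, and the group means differed 3.74-fold. The difference in log2(FPKM + 1), called log2 fold change below, was -1.69 (SE 0.14), and 3 of the 10415 genes tested lay lower. In those libraries the summed Treg markers came to 1611 and 1708 FPKM (WT) and 1524 and 1561 (cKO), and Foxp3 stood at 107 and 106 against 114 and 117. The sum hides the direction of most markers, since 6 of the 7 had log2 fold changes above 0 (median of the 7, 0.30). Limma called 0 of the 7, and 5 had an unadjusted p under 0.05, as did 13.0% of all genes. Most of each sum was Ctla4 (means 1143 FPKM in WT and 911 in cKO), the 1 marker below 0 (-0.33). The B cell markers were also lower in the cKO libraries in vivo, as given above, and their part in the difference of Nrn1 was not tested.

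In culture Nrn1 was again lower in the cKO libraries. The B cell and erythroid markers were higher in those libraries, as given above, and their part in the difference of Nrn1 was not tested. Unstimulated WT cells had 14.9 and 11.5 FPKM of Nrn1 and unstimulated cKO cells 6.44 and 10.6. The groups did not overlap, but the gap between the nearest libraries was small and the gene missed the threshold, with a log2 fold change of -0.60 (SE 0.25, limma adjusted p = 0.732). It was -0.28 without unstimulated cKO replicate 1 and -0.92 without unstimulated cKO replicate 2. After stimulation the WT libraries were at 24.7 and 22.4 FPKM and the cKO libraries at 6.11 and 7.04. The means were 3.59-fold apart, close to the ratio in vivo, with a log2 fold change of -1.70 (SE 0.25) that also missed the threshold (limma adjusted p = 0.0864). Foxp3, by comparison, was at 529 and 696 FPKM in the stimulated WT libraries against 238 and 268 in cKO, a log2 fold change of -1.26 (limma adjusted p = 0.0769). Without stimulation it was at 194 and 189 against 71.5 and 82.6 FPKM. The other Treg markers did not all follow it, since 4 of the 7 (Gpr83, Ikzf2, Il2ra and Ikzf4) had log2 fold changes above 0 in both cultured states. Ctla4 (-0.57 unstimulated and -0.51 stimulated) and Tnfrsf18 (-0.18 and -0.43) were below 0 in both, as Foxp3 was. In culture limma called 0 of the 7 between genotypes (0.0747% of all genes unstimulated and 0.0187% stimulated). With an unadjusted p under 0.05 there were 4 unstimulated and 3 stimulated, beside 6.56% and 14.1% of all genes. How far Foxp3 moved with Nrn1 was not tested.

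The responses of Nrn1 to stimulation had opposite signs in the 2 genotypes. In WT cells every stimulated library had more Nrn1 than either unstimulated one, with a log2 fold change of 0.80 (SE 0.25, limma adjusted p = 0.146). In cKO cells the stimulated and unstimulated libraries overlapped, at -0.30 (SE 0.25, limma adjusted p = 0.557). The difference between these responses, the interaction of genotype and stimulation, was -1.10 (SE 0.35), with an unadjusted p of 0.0150 and a limma adjusted p of 0.999. The direction of the cKO response turned on 1 library, since it was 0.02 without unstimulated cKO replicate 2. In vivo the means were 16.1 ± 1.46 FPKM in WT (SD, n = 2) and 4.29 ± 0.665 in cKO. Ordered by mean, the in vitro groups ran from stimulated cKO (6.58 ± 0.658 FPKM, SD, n = 2) through unstimulated cKO (8.52 ± 2.94) and unstimulated WT (13.2 ± 2.41) to stimulated WT (23.6 ± 1.64). The 2 cKO groups overlap in that order, and only stimulated WT stands clear of its neighbour by more than both SDs together. The homologue Nrn1l was below the filter in both tables, at no more than 1.28 FPKM in any library.

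**Figure D1:**
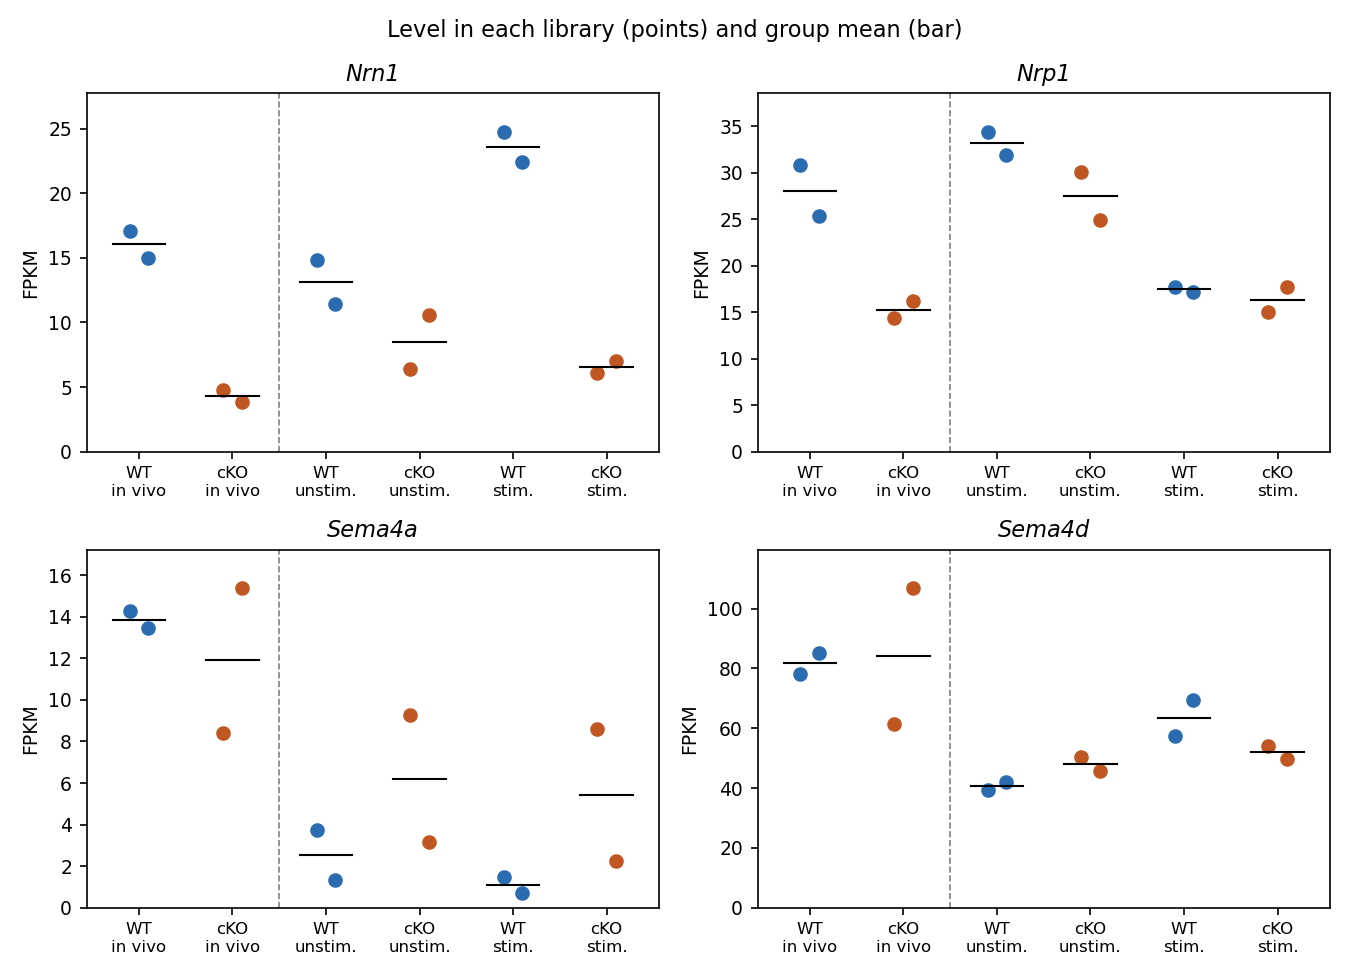
FPKM of Nrn1, Nrp1, Sema4a and Sema4d (vertical axes, each from 0) in the 6 groups, with 1 point per library (blue WT, orange cKO), the group mean as a bar, and a dashed line between the tables normalized separately. Nrn1 is lower in cKO at each of the 3 states, Nrp1 is low in cKO in vivo and in both stimulated groups, and the cKO libraries of Sema4a lie far apart.

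Nrp1 had lower values in cKO cells in vivo and lower values after stimulation in both genotypes. In vivo its level was 30.8 and 25.3 FPKM in WT cells, against 14.4 and 16.2 FPKM in cKO cells, so the groups did not overlap. The log2 fold change was -0.83 (SE 0.14), which did not pass the test (limma adjusted p = 0.0682), and the groups differed 1.84-fold in their means. It passed when the first or the second cKO library was left out (adjusted p = 0.0231 and 0.00540), fits in which the 1 cKO library left is assumed to vary like WT and in which the genes called over the whole table grew from 39 to 425 and 1994. With Nrn1 set aside as chosen on that contrast, limma called 0 of the other 3 members in vivo, where 0.374% of all genes tested were called. Of those 3, Nrp1 had an unadjusted p under 0.05, as did 13.0% of all genes.

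In culture the genotypes lay closer at Nrp1, although the tables were not tested against each other. Unstimulated, the WT libraries stood at 34.4 and 31.9 FPKM and the cKO libraries at 30.1 and 24.9, a log2 fold change of -0.26 (SE 0.17, limma adjusted p = 0.875). Stimulated, WT libraries were at 17.7 and 17.2 FPKM and cKO libraries at 15.0 and 17.7, which overlap (log2 fold change -0.09, SE 0.17, limma adjusted p = 0.824, and 0.02 with quantile normalization). The unstimulated libraries were all above the stimulated ones in each genotype. Nrp1 fell with stimulation in WT cells by 0.89 on the log2 scale (SE 0.17, limma adjusted p = 0.0390), and the log2 fold change in cKO cells was -0.72 (SE 0.17, limma adjusted p = 0.0530). The 2 responses differed by 0.17 (SE 0.23, limma adjusted p = 0.999). Ordered by mean, stimulated cKO (16.3 ± 1.91 FPKM, SD, n = 2) and stimulated WT (17.4 ± 0.382) came first and did not differ beyond their spread. Unstimulated cKO (27.5 ± 3.65) and unstimulated WT (33.1 ± 1.73) followed, with a gap close to the sum of their SDs.

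The call in WT cells lay close to the threshold, being lost without any 1 of the 8 libraries other than stimulated WT replicate 1, while the log2 fold change stayed between -0.94 and -0.84. Among the members, 1 of 4 was called in WT cells, where 2.43% of all genes were, and 0 of 4 in cKO cells, where 4.58% were. With an unadjusted p under 0.05 these counts were 3 (Nrn1, Nrp1 and Sema4d) and 1 (Nrp1), beside 18.7% and 21.4% of all genes. Between genotypes in culture limma called 0 of 4 members without stimulation (0.0747% of all genes) and 0 of 4 with it (0.0187%), Nrn1 having an unadjusted p under 0.05 in both, as did 6.56% and 14.1% of all genes. For the interaction 0 of 4 were called (0% of all genes), and Nrn1 and Sema4d had an unadjusted p under 0.05, as did 380 of 10710 genes.

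**Figure D2:**
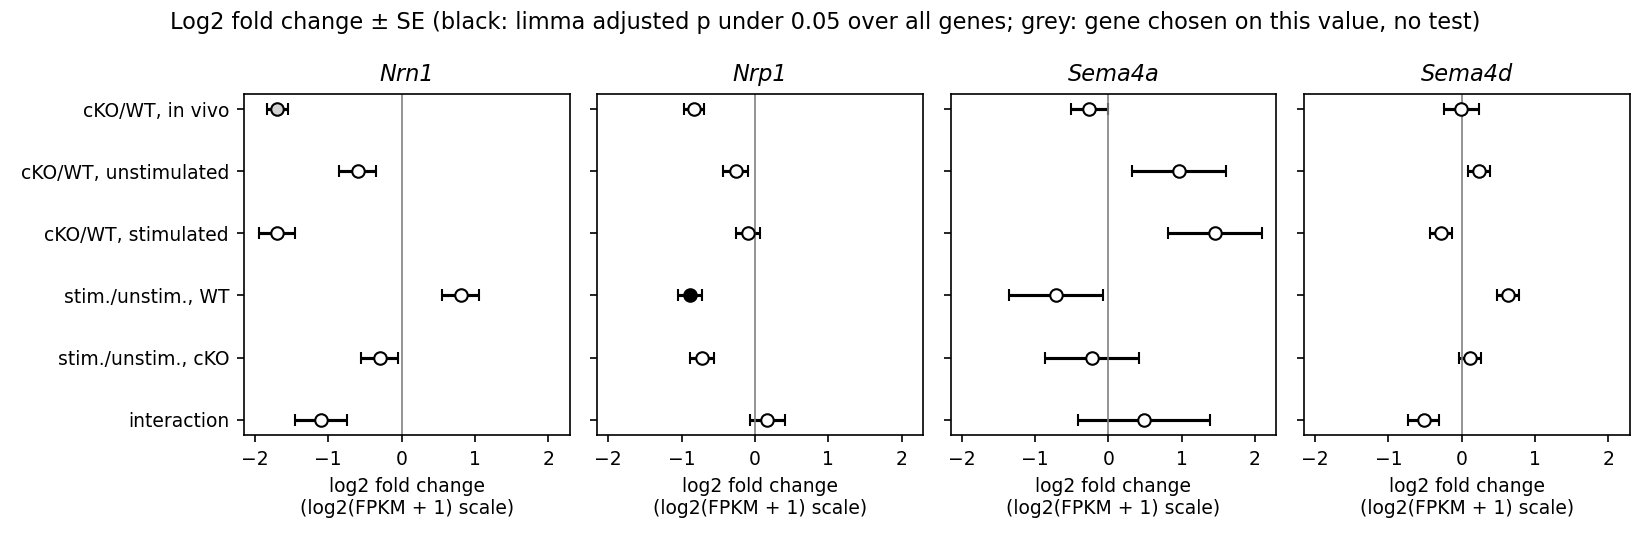
Log2 fold change on the log2(FPKM + 1) scale (horizontal axis, points with SE bars) of each member in the 6 comparisons, black where the limma adjusted p over all genes was under 0.05, white where it was not, and grey for the value on which Nrn1 was chosen. The grey point is at -1.69, the black point is Nrp1 with stimulation in WT cells at -0.89, and the SE of Sema4a in vitro (0.64 in the comparisons of 2 groups) is the widest.

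Sema4d, the ligand CD100, was the most abundant of the 4 genes per unit of length in every group, and no comparison passed the test. In vivo it was at 78.3 and 85.1 FPKM in WT. The cKO values were 61.5 and 106.9 FPKM, 1 below and 1 above both WT values. The log2 fold change of -0.01 (SE 0.24, limma adjusted p = 0.991) is thus the mean of 2 cKO libraries that went opposite ways, and it was 0.39 without the first cKO library in table order (adjusted p = 0.0657) and -0.40 without the second (adjusted p = 0.0223).

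In culture Sema4d was at 39.2 and 41.9 FPKM in unstimulated WT cells and at 57.6 and 69.6 FPKM in stimulated ones. Both stimulated libraries lay above both others, with a log2 fold change of 0.63 (SE 0.15, limma adjusted p = 0.0755). It passed without stimulated WT replicate 1, at 0.76 and adjusted p = 0.0393. In cKO cells the unstimulated libraries had 50.4 and 45.8 FPKM and the stimulated libraries 54.2 and 49.8, which overlap (log2 fold change 0.11, SE 0.15, limma adjusted p = 0.729). Between the genotypes the groups did not overlap in either state, and the cKO libraries were the higher ones without stimulation (0.24, SE 0.15, limma adjusted p = 0.875) and the lower ones with it (-0.28, SE 0.15, limma adjusted p = 0.439). By mean the order was unstimulated WT (40.6 ± 1.93 FPKM, SD, n = 2), unstimulated cKO (48.1 ± 3.21), stimulated cKO (52.0 ± 3.14) and stimulated WT (63.6 ± 8.53), and of these neighbours the last 3 do not stand apart by more than the sum of their SDs. The interaction was -0.52 (SE 0.21), with an unadjusted p of 0.0397 and a limma adjusted p of 0.999.

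Sema4a, a ligand of neuropilin 1, was at 14.3 and 13.5 FPKM in WT cells in vivo and at 8.43 and 15.4 in cKO cells. The cKO libraries again lay on both sides of the WT libraries (log2 fold change -0.26, SE 0.25, limma adjusted p = 0.670), the lower of them being the library that was also lowest for Sema4d. It was 0.14 without that library (adjusted p = 0.555) and -0.66 without the other (adjusted p = 0.00926), the fit in which 1994 genes were called.

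In culture the 2 replicates of each group differed in Sema4a. Unstimulated WT replicates 1 and 2 had 3.75 and 1.35 FPKM, and stimulated WT replicates 1.46 and 0.692. Unstimulated cKO replicates were at 9.27 and 3.14 FPKM, and stimulated cKO replicates at 8.62 and 2.24. Replicate 1 was the higher library in each of the 4 groups. Set against WT, cKO cells had a log2 fold change of 0.96 without stimulation (SE 0.64, limma adjusted p = 0.893), where the groups overlap, and 1.45 with it (SE 0.64, limma adjusted p = 0.360), where they do not. Without single libraries these ran from 0.31 (without unstimulated cKO replicate 1) to 1.62 and from 0.67 (without stimulated cKO replicate 1) to 2.24. Stimulated over unstimulated, it was -0.71 in WT (SE 0.64, limma adjusted p = 0.579) and -0.22 in cKO (SE 0.64, limma adjusted p = 0.889), with overlapping groups. The means were 1.08 ± 0.544 FPKM in stimulated WT, 2.55 ± 1.70 in unstimulated WT, 5.43 ± 4.51 in stimulated cKO and 6.20 ± 4.33 in unstimulated cKO (SD, n = 2), and no neighbours in this order differ beyond their spread.

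Summed myeloid and erythroid markers were highest in the cKO replicate 1 libraries, as Sema4a was. In WT both sums were lower in replicate 1, where Sema4a was higher, but after stimulation the myeloid order depended on Cst3. The 9 myeloid markers summed to 336 and 156 FPKM in unstimulated cKO replicates 1 and 2 and to 254 and 128 in the stimulated ones, with 9, 4, 8 and 5 of the 9 at 1 FPKM or more. In WT the sums were 104 and 136 without and 86.4 and 97.6 with stimulation, with 3 or 4 markers at 1 FPKM or more. Within WT the replicate with more Sema4a thus had the lower sum, but most of each WT sum was Cst3. Cst3 was at 94.0 and 121 FPKM in unstimulated WT replicates 1 and 2 and at 76.1 and 91.3 in the stimulated ones. Without Cst3, WT replicate 1 had the lower myeloid sum unstimulated but the higher one stimulated. In WT replicate 1 libraries 0 of the 9 markers were at 0 FPKM, against 3 (unstimulated) and 4 (stimulated) in replicate 2. The lysozyme gene Lyz2 was at 76.1 and 32.7 FPKM in unstimulated and 46.7 and 33.4 in stimulated cKO libraries, against 1.79 to 9.27 in WT. The macrophage receptor gene Csf1r was at 3.64, 0.71, 2.75 and 1.25 FPKM in those cKO libraries and at 0 to 0.83 in WT in vitro. The cKO replicate 1 libraries, highest for Sema4a, were also highest for the myeloid and for erythroid markers (51165 and 41722 FPKM). Within WT the erythroid sums were lower in replicate 1, at 11.2 against 644 FPKM unstimulated and 305 against 1689 stimulated. B cell sums were 194 and 212 FPKM in unstimulated and 170 and 168 in stimulated cKO replicates 1 and 2. Myeloid cells and B cells are known to express Sema4a, and the part of such cells in its level was not tested.

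**Figure D3:**
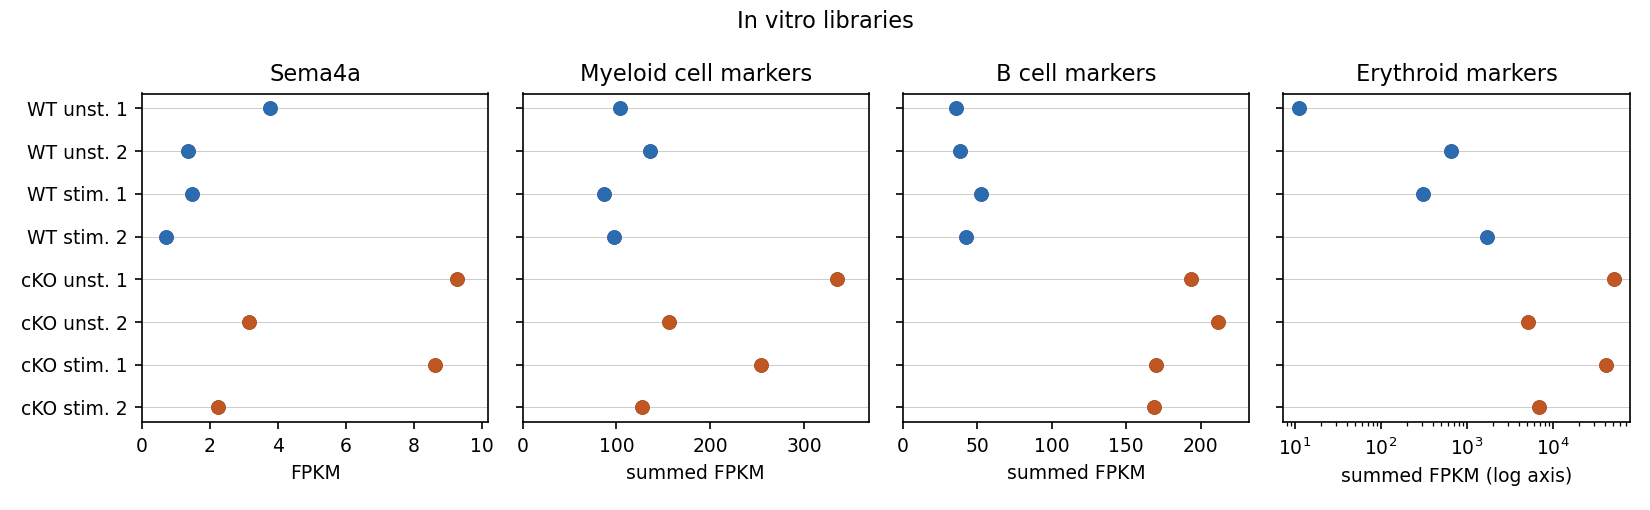
FPKM of Sema4a and summed FPKM of myeloid, B cell and erythroid markers (horizontal axes, the last on a log scale) in the 8 in vitro libraries, 1 point each (blue WT, orange cKO), with the replicate number in the row label. The cKO replicate 1 libraries are the highest in Sema4a (9.27 and 8.62 FPKM), in myeloid and in erythroid markers.

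The level of a gene in vivo and in culture can be set side by side but not tested, since the tables were normalized separately. In WT libraries Sema4a had means of 13.9 FPKM in vivo and 2.55 unstimulated in vitro, and Sema4d 81.7 and 40.6. Nrp1 had 28.1 and 33.1, and Nrn1 16.1 and 13.2. Among genes tested, Sema4a stood at percentile 54.2 of WT levels in vivo and at 15.0 unstimulated in vitro, while Sema4d stood at 91.8 and 83.5. The 9 myeloid markers summed to 128 and 132 FPKM in WT in vivo and to 104 and 136 in unstimulated WT culture. Within these sums Cst3 alone had the higher mean in culture (69.4 FPKM in vivo and 107 in culture). The other myeloid markers all had lower means in culture, Lyz2 with 22.8 and 7.21, C1qa with 14.8 and 0.11 and Csf1r with 7.98 and 0.49. Their part in the level of Sema4a was not tested.

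Most of the wider semaphorin family was low in these libraries. Of 21 semaphorin genes listed, 20 were in each table and 8 passed the filter in both, the class 3 genes all failing it with at most 0.82 FPKM in any library. After Sema4d, Sema4b was the most abundant, at 37.3 to 61.7 FPKM in vivo and 17.8 to 34.5 in vitro. Sema7a, a lipid-anchored semaphorin, was at 3.19 and 6.004 FPKM in unstimulated WT and at 12.6 and 8.74 in unstimulated cKO libraries (log2 fold change 1.09, limma adjusted p = 0.470). Limma called 0 of 8 between genotypes in each of the 3 states, and the numbers with an unadjusted p under 0.05 were 2 in vivo, 2 unstimulated and 0 stimulated. The same level was reached by 13.0%, 6.56% and 14.1% of all genes in these 3 comparisons. The one gene it called was Sema6c, a transmembrane ligand of plexins, which fell with stimulation in cKO cells from 3.64 and 3.97 to 0.93 and 1.30 FPKM (log2 fold change -1.19, SE 0.26, adjusted p = 0.0492), while WT cells had 3.55 and 4.34 and then 1.64 and 1.88 (-0.84, adjusted p = 0.150). With stimulation limma thus called 0 of 8 semaphorins in WT and 1 of 8 in cKO cells, beside 2.43% and 4.58% of all genes. The call of Sema6c was lost with median-of-ratios scaling and with quantile normalization.

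Among 13 listed receptors, 9 were tested in vivo and 8 in vitro. The one call was Nrp1 in WT cells with stimulation (1 of 8, beside 2.43% of all genes). In unstimulated cells 7 of 8 had a higher mean in cKO, Nrp1 being the exception (median 0.77, against 0.02 for all genes), and after stimulation 6 of 8 did (median 0.51, 7 of 8 with quantile normalization). In vivo 6 of 9 lay above 0 (median 0.26). Of all genes, 46.9% in vivo, 53.0% unstimulated and 44.9% stimulated lay above 0 (medians -0.02, 0.02 and -0.05). Limma called 0 receptors in each state. An unadjusted p under 0.05 was reached by 3 of 9 in vivo, 4 of 8 unstimulated and 3 of 8 stimulated (13.0%, 6.56% and 14.1% of all genes). Nrp2, the second neuropilin, went the other way from Nrp1 in its means. It was at 2.15 and 2.00 FPKM in WT and 9.50 and 2.60 in cKO in vivo, at 0.74 and 0.22 against 4.12 and 1.72 unstimulated, and at 1.00 and 0.49 against 7.81 and 3.84 stimulated. Its log2 fold changes of 1.00, 1.35 and 1.92 did not pass (adjusted p = 0.407, 0.575 and 0.149). The groups of 2 did not overlap in any state, with 2.60 (cKO) and 2.15 FPKM (WT) nearest in vivo. The share of all genes without overlap was not computed.

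Some plexins had higher means in cKO in vitro, where the myeloid and B cell markers were higher too. Plxnb2, a receptor of class 4 semaphorins, was at 0.63 and 0.14 FPKM in unstimulated WT and 3.84 in both cKO libraries (log2 fold change 1.83, limma adjusted p = 0.123). Plxnc1, the receptor of semaphorin 7A, was at 6.85 and 5.71 against 15.2 and 10.1 FPKM (0.89, adjusted p = 0.548). Plxnd1, which semaphorin 4A can bind, had 9.87 and 16.3 against 21.2 and 15.2 FPKM, which overlap. Plxnb1, the receptor of semaphorin 4D, was at 0.87 to 2.65 FPKM in vitro and Cd72, its B cell receptor, at 9.41 and 15.3 FPKM in unstimulated WT and 28.0 and 29.6 in cKO (1.19, adjusted p = 0.374). The part of other cells in these receptor levels was not tested.

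**Figure D4:**
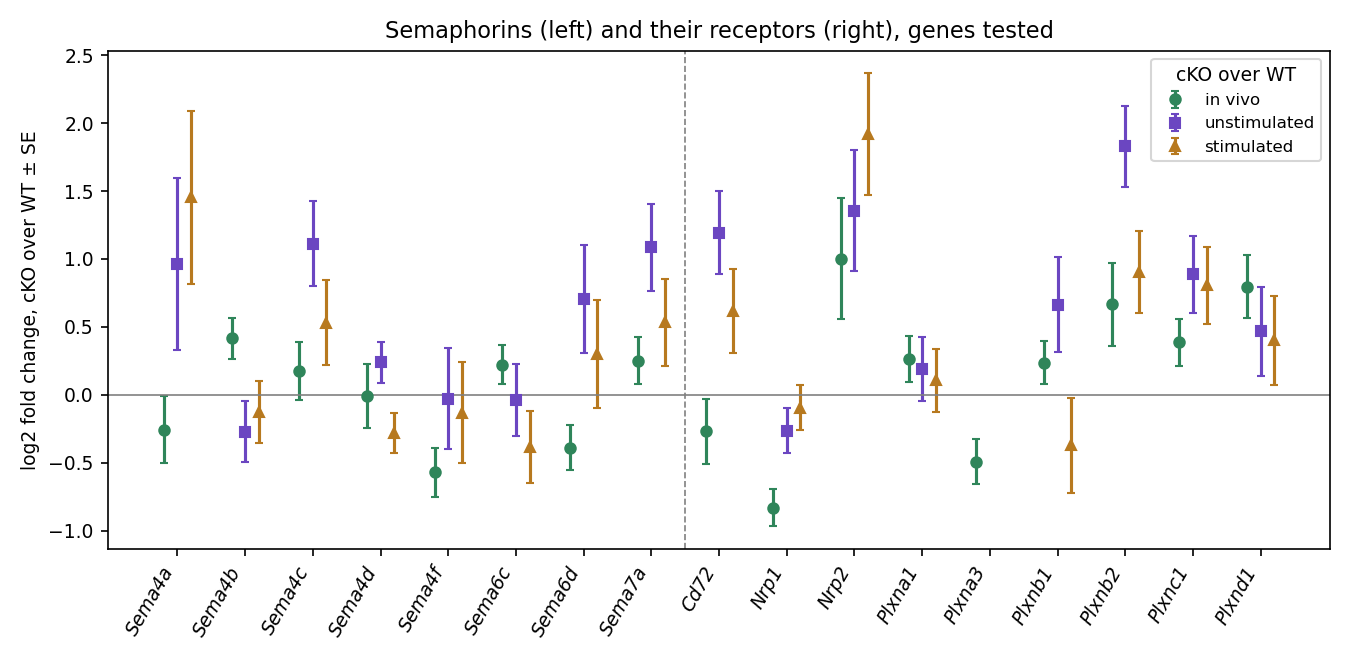
Log2 fold change of cKO over WT (vertical axis, points with SE bars) for the 8 semaphorins and 9 receptors that were tested in vivo (circles), unstimulated (squares) and stimulated (triangles). Nrp1 lies below 0 in all 3 states (just above 0 with quantile normalization when stimulated), while Nrp2 and Plxnb2 lie above 0 in each, and none of the 3 passed the test between genotypes.

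None of the other partners and downstream genes passed the test. Tgfb1, whose product can bind neuropilin 1, was at 177 to 277 FPKM over the 12 libraries, and Vegfa at 4.03 to 10.9. Limma called 0 of 4 tested neuropilin ligands and partners in vivo and 0 of 5 in the in vitro comparisons, and 0 of 11 tested genes that act below plexins and neuropilin in any of the 6. At an unadjusted p under 0.05 there were, between genotypes, 0 of the partners in any state and 3, 1 and 1 of the 11 downstream genes in vivo, unstimulated and stimulated, beside 13.0%, 6.56% and 14.1% of all genes. The log2 fold changes of the downstream genes between genotypes ran from -0.50 for Arhgef11 (unstimulated) to 0.52 for Rnd1 (in vivo). Rhoa and Rac1, the small GTPases that plexins act on, were the most abundant of them, at 177 to 299 and 145 to 221 FPKM, followed by Fyn, a kinase of semaphorin signalling, at 108 to 172.

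Among genes described with neuritin in anergic or follicular T cells, none was called between genotypes. Of 10 anergy-associated genes limma called 0 in each state, with 0 in vivo, 2 unstimulated and 3 stimulated at an unadjusted p under 0.05, where 13.0%, 6.56% and 14.1% of all genes were. Izumo1r, the folate receptor 4 gene, was at 271 and 275 FPKM in WT and 246 and 274 in cKO in vivo (log2 fold change -0.07). Nt5e, which encodes CD73, was at 140 and 134 FPKM in stimulated WT and 82.9 and 79.2 in stimulated cKO libraries (-0.75, limma adjusted p = 0.0912). Egr3 went the other way, at 0.88 unstimulated and 0.96 stimulated (limma adjusted p = 0.701 and 0.278). After stimulation 8 of the 10 genes had log2 fold changes above 0, as did 44.9% of all genes, but the median of the 10 was 0.06. The 2 below 0 were Nt5e and Dgka (-0.46). Dgka and Dgkz, kinases that remove diacylglycerol, fell with stimulation in cKO cells by 1.02 and 0.61 on the log2 scale (adjusted p = 0.0258 and 0.0364). Their WT values were -0.73 and -0.57 (adjusted p = 0.0851 and 0.0558). Of the follicular genes, Bcl6, Pdcd1 and Sh2d1a fell with stimulation in both genotypes (Bcl6 by 2.65 in WT and 2.50 in cKO), and Icos rose in cKO cells by 1.71 (adjusted p = 0.0172), with 0.86 in WT (adjusted p = 0.146). With stimulation limma thus called 3 of 5 follicular genes in WT and 4 of 5 in cKO cells, beside 2.43% and 4.58% of all genes. Of the 10 anergy-associated genes it called 0 in WT and 2 in cKO cells. The interaction was not called for Dgka, Dgkz or Icos (limma adjusted p = 0.999 for each). Between genotypes limma called 0 of 6 follicular genes in vivo and 0 of 5 in each state in vitro, with 2, 2 and 1 at an unadjusted p under 0.05 in vivo, unstimulated and stimulated (again 13.0%, 6.56% and 14.1% of all genes).

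For each member, the genes with the nearest profile over the 8 in vitro libraries were found by the root mean square difference in log2(FPKM + 1) after centring each gene, among 10235 candidates. For Nrn1 they were Ccdc22 (0.22), Ctla2a (0.30) and Snhg16 (0.31), against a spread of 0.68 for Nrn1 itself. Ccdc22 and Foxp3 overlap by 1435 bases on chromosome X, so reads of the 2 can be shared, and in vivo Ccdc22 had a log2 fold change of 0.03. Those of Nrp1 were Sit1 (0.10), Ctps2 (0.11) and Tnfaip8l1 (0.11), with a spread of 0.42. Sema4d lay nearest to Mtx3 (0.07), Zbtb18 (0.08) and Rhoc (0.08), with a spread of 0.24. Sema4a lay nearest to Pcdhgb6 (0.29), Gpx1 (0.30) and St3gal5 (0.30), with a spread of 0.88. Gpx1, an antioxidant enzyme gene, was at 310 and 383 FPKM in the cKO replicate 1 libraries and at 76.2 to 144 in the other 6.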

How the data were processed

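Polyadenylated RNA of Treg was sequenced in 12 samples, grouped by their titles. The authors deposited 2 tables of FPKM, fragments scaled to gene length and library fragments, 1 for the 4 in vivo and 1 for the 8 in vitro samples, with 1 column per library. HISAT2 2.2.1, StringTie 2.1.1 and the builds mm10 and hg19 are named per the submitters' processing notes. Roles, annotation and filters are not given in the sources used here. In vivo columns show a genotype but no replicate number, so first and second follow table order. The tables also hold 4 columns that match no sample of this series, left unused. Entrez numbers were matched to RefSeq symbols for 16196 of 16232 genes in vivo, and 24300 of 24421 in vitro names matched a symbol or synonym.

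FPKM are not counts, so limma 3.58.1 (R 4.3.3, two-sided, intensity trend) was run on log2(FPKM + 1), separately per table. Genes averaging 1 FPKM or more entered, 10415 in vivo and 10710 in vitro. Calls needed a Benjamini-Hochberg value below 0.05 across every gene entered, at any fold. The log2 scale understates changes of low genes. The steps were tested on simulated data with known changes. The members, the gene lists and the rule for named genes (all members, called list genes, else up to 4 of the most abundant in a list, and the 3 nearest profiles per member) were chosen with earlier results of these data known. The text also names list genes by role after their values were seen. Lists are described by counts and medians. The values of 1 listed gene are not reported here.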

Additional observations from a re-analysis of the deposited data

How the results depend on the processing

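The level differences of the 4 genes were refitted under quantile normalization, median-of-ratios scaling, a pseudocount of 0.1, a floor of 5 FPKM, no filter, the replicate number as a block, only the 4 samples compared and without each library. Removal of both WT replicate 2 libraries, of both cKO replicate 1 libraries or of the erythroid genes was chosen after seeing the data. The log2 fold change of Nrn1 in vivo, on which the gene was chosen, ranged from -1.89 to -1.56. The number of members called in vivo, which includes Nrn1 and so supports nothing, was 0 with no filter (0 genes called in the whole table) and ran from 1 to 4 as single libraries were left out, being 2 without the first cKO library in table order and 4 without the second. With stimulation in WT cells it was 0 with no filter, with only the 4 samples, without erythroid genes and without either pair of libraries (both WT replicate 2 or both cKO replicate 1), and ran from 0 to 2 as single libraries were left out. With stimulation in cKO cells it was 1 (Nrp1) in place of 0 with the floor of 5 FPKM, with only the 4 samples and without both WT replicate 2 libraries. The replicate block left the number called unchanged, at 0 for both genotype comparisons in vitro, 1 and 0 for stimulation in WT and cKO and 0 for the interaction. Deviations of same-numbered samples correlated between -0.138 and 0.42 over the 6 pairs of groups, so the numbers were not taken to pair the samples.

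Directions turned for values near 0 or resting on 1 library. Nrp1 between stimulated genotypes was 0.015 with quantile normalization and 0.0178 without stimulated cKO replicate 1 or without both cKO replicate 1 libraries, and -0.2076 to 0.0178 as single libraries were left out. Sema4d in vivo was 0.0094 with median-of-ratios scaling, 0.0206 with quantile normalization and -0.40 to 0.39 as single libraries were left out. Without single libraries Sema4a ran from -0.66 to 0.14 in vivo, from -0.30 to 1.27 in the interaction and from -1.01 to 0.56 with stimulation in cKO, and Nrn1 with stimulation in cKO from -0.62 to 0.0239. The causes were not tested, and the unknown depth limits what can be said of levels near 1 FPKM, Sema4a in WT culture among them.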
